A study of Mus musculus with 12 samples.

Results

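A set of 10 imprinted genes of fetal growth was followed through 12 RNA-seq libraries of mouse liver cells. They are H19, Igf2, Dlk1, Meg3, Rian, Dio3, Cdkn1c, Peg3, Igf2r and Grb10, taken by symbol from a raw count table. These 10 are among 53599 genes in the table, and 9 of them, all but Dlk1, are among the 14798 genes that passed the filter on low counts. The libraries form 4 groups of 3. Per the labels, hepCLiP cells come from hepatocytes and bilCLiP cells from the biliary epithelium, and each was grown as a 2D layer and as 3D spheroids. The 2D layers grew on collagen. Their small hepatocyte medium held 10% FBS (fetal bovine serum) and 3 small molecules: Y-27632, A83-01, which blocks TGF-beta receptors, and CHIR99021, which blocks GSK3. For 3D, cells spent 3 days forming spheroids in that medium with the same 3 molecules and no FBS. They were then held in suspension for 6 to 8 days with those 3 molecules plus oncostatin M at 10 ng/ml, a cytokine that acts on hepatocytes of the fetal liver. Culture geometry, serum, oncostatin M and time therefore change together and cannot be told apart. All bilCLiP libraries and hepCLiP replicate 2 carry the RosaYFP reporter, and hepCLiP replicates 1 and 3 carry RosaConfetti. No label gives the number of animals or cell lines behind the replicates, so a p-value here rests on the spread among libraries, which may be technical.

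Imprinted genes are read from the copy inherited from one parent. Igf2 encodes a growth factor of the fetus and is silenced in the liver after birth, together with H19, a noncoding RNA that shares its enhancers. Igf2r removes IGF2 from the cell surface, Grb10 dampens insulin and IGF receptors, and Cdkn1c blocks the cell cycle. Dlk1, Meg3, Rian and Dio3 lie in one imprinted domain. Counts do not separate the parental copies, so the values below are sums over both, and they say nothing about which copy was read.

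Sequences before the starts of these genes, and microRNAs they host, are shown first, for the following reasons. Dio3 did not move with Meg3 and Rian, its neighbours in one domain, and H19 and Igf2 gave the largest rises of the 9 tested genes. Whether the sequences shown act as promoters in these cells was not tested. RefSeq (GRCm38.p6) start sites were at hand for 8 of the 10 genes, all but H19 and Cdkn1c, which were not searched. For the 8, the 250 bases before a start were searched on both strands. Motifs searched were TGACGTCA, the cAMP response element bound by CREB proteins, TATAAA, the TATA box, and TTCNNNGAA, the STAT site, shown because oncostatin M acts through STAT3. Capitals mark these 3 motifs.
Meg3, chr12:109540746-109540995, + strand: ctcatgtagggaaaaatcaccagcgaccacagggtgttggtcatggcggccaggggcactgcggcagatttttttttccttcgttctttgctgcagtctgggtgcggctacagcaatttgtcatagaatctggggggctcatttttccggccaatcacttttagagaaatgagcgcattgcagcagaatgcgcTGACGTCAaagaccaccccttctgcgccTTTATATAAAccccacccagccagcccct
Rian, chr12:109603695-109603944, + strand: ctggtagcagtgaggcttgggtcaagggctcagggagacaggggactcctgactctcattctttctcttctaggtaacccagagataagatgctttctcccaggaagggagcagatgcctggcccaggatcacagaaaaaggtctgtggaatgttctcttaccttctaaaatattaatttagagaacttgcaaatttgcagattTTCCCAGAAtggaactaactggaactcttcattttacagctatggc
Dio3, chr12:110278980-110279229, + strand: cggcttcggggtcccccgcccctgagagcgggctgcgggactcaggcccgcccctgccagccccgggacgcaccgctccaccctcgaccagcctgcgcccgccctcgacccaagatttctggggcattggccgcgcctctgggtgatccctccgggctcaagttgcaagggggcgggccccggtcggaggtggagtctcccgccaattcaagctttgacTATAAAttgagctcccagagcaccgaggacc
Peg3, chr7:6730420-6730669, - strand: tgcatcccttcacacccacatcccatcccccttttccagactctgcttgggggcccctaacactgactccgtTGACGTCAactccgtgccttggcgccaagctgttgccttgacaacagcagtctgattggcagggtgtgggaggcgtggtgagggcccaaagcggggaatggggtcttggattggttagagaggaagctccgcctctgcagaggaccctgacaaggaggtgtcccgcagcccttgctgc
Igf2, the most downstream start, chr7:142657497-142657746, - strand: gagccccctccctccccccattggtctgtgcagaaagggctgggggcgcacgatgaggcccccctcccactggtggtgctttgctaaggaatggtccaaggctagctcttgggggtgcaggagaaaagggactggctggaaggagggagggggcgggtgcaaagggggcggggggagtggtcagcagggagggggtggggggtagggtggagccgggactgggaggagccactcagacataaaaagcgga

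The cAMP response element began 57 bases before the Meg3 start and 178 bases before the Peg3 start. It was in 2 of the 13 windows of the 8 genes and in 1.55% of 32851 windows of the same length. TATAAA began 31 bases before the Dio3 start and was on both strands, overlapping itself, 25 and 29 bases before the Meg3 start. It was in 2 of the 13 windows, against 12.4% of all. The STAT motif was in 1 of the 13 windows, 46 bases before the Rian start, against 7.02% of all windows. None of the 3 motifs was in the Igf2 window shown. Other motifs searched were the GC box GGGCGG (5 of 13 windows, against 32.7% of all), the E-box CACGTG (1 of 13, against 6.02%) and the CCAAT box (4 of 13, against 33.8%). H19 and Igf2 also host microRNAs, given here with the seed (bases 2 to 8) in capitals.
miR-675-5p, in H19: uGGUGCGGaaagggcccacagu
miR-675-3p, in H19: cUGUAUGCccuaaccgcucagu
miR-483-5p, in Igf2: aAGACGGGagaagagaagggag
miR-483-3p, in Igf2: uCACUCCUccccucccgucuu
The 4 seeds differ from each other. The table's row for the miR-675 hairpin held 0 counts over all 12 libraries and that for miR-483 held 13, so the values that follow are those of the host genes.

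Each library held 16142365 to 21253382 counts. The treatment tag goes against the title for hepCLiP 2D replicate 3 and for the 3 bilCLiP 3D libraries, and groups follow the titles. All 8 hepatocyte markers rose in both origins, from a summed 2610 to 6600 CPM (counts per 1000000 counts, with TMM-scaled library sizes) in 2D to 52716 to 129820 CPM in 3D. The 8 biliary markers summed to 3691 to 10991 CPM in 2D and 11398 to 33411 CPM in 3D, with a rise of Spp1 in 3D, while Krt19 and Tspan8 fell in both origins. Endothelial markers summed to at most 3.66 CPM, erythroid ones to at most 2.93 CPM and blood and immune ones to at most 19.8 CPM. Of 6 mesothelial markers, Msln alone exceeded 6.50 CPM, with 333 to 989 CPM in 2D and 5.42 to 27.8 CPM in 3D. Its part in the falls described below was not tested. In bulk RNA, fewer cells of a type and less RNA per cell cannot be told apart.

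In both origins H19 and Igf2 rose in 3D, and Dio3, Peg3 and Igf2r fell. By edgeR's quasi-likelihood test with Benjamini-Hochberg adjustment at 0.05, 5 of the 9 tested genes were called in hepCLiP, where 34.7% of all tested genes were called. Likewise 5 of 9 were called in bilCLiP, against 30.3% of all. Rises were 2 of 9 in each origin, against 16.9% of all genes in hepCLiP and 15.8% in bilCLiP. Falls were 3 of 9, against 17.9% and 14.5%. The median log2 fold change of the 9 was -0.19 in hepCLiP and 0.48 in bilCLiP, against -0.06 and -0.00 over all tested genes. The count of 5 held without any 1 of the 12 libraries. With only the 8 RosaYFP libraries, which leave 1 hepCLiP library per culture, it was 2 in hepCLiP, Igf2 and Dio3, where that fit called 4.82% of all genes. In that fit the spread between replicates comes from the bilCLiP groups alone, and the lone hepCLiP libraries are assumed to vary alike.

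**Figure D1:**
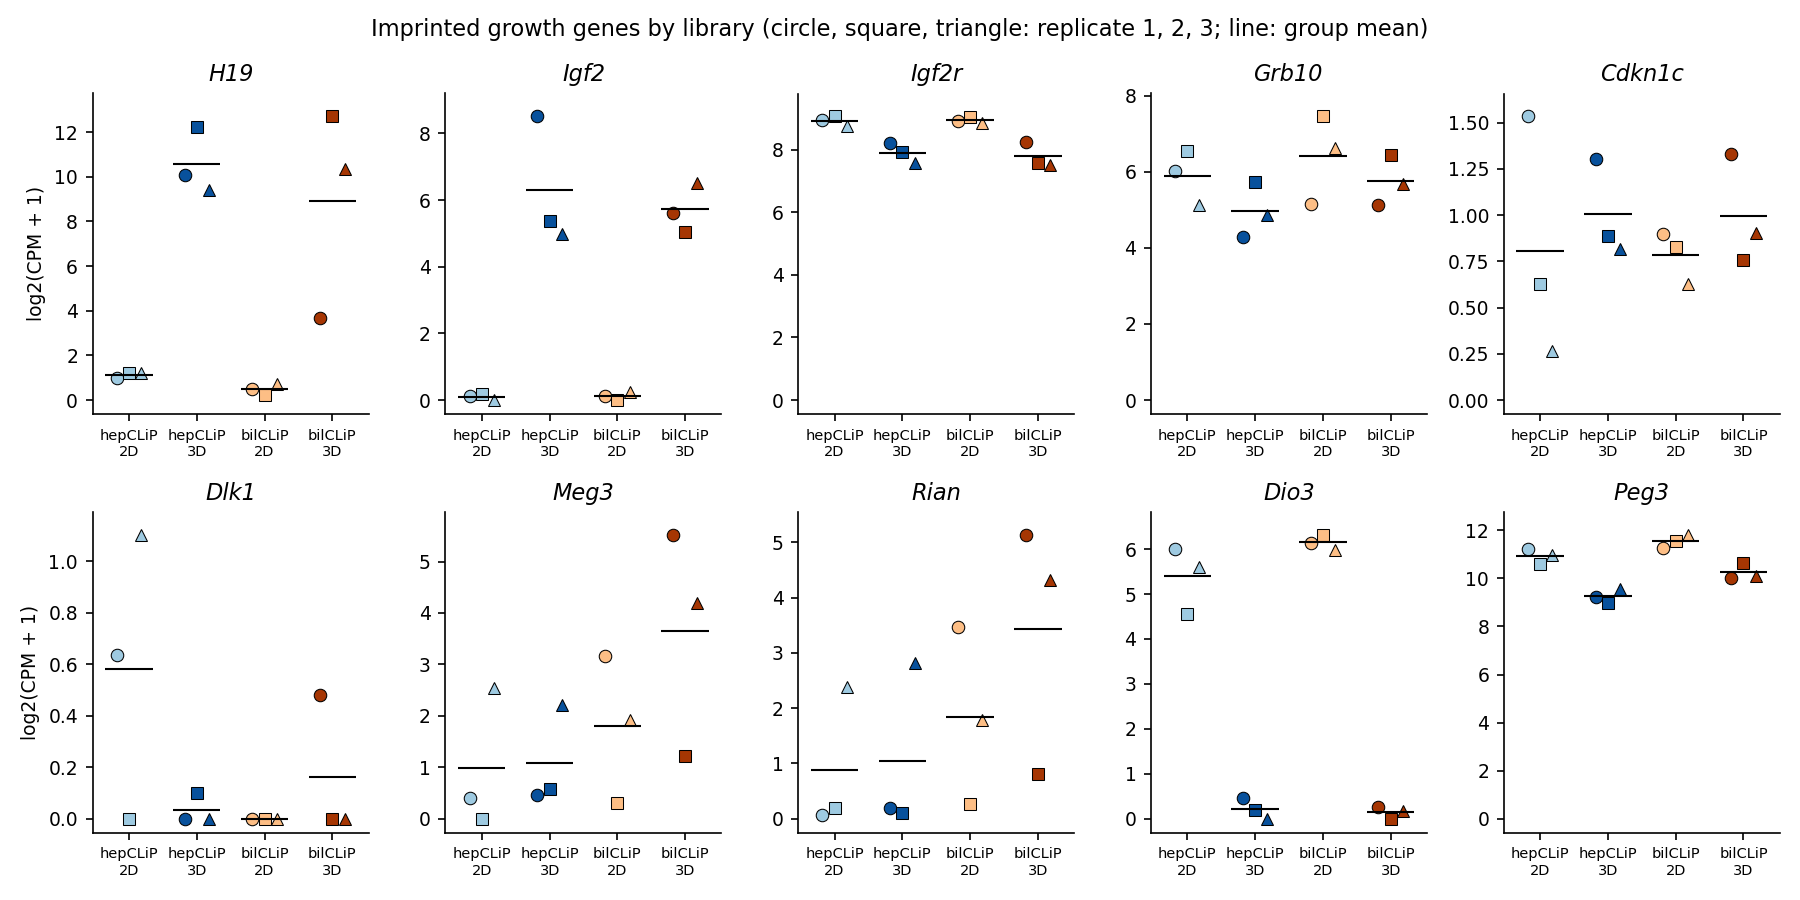
Level of each of the 10 genes in the 12 libraries, as log2(CPM + 1), with replicates 1, 2 and 3 as circle, square and triangle and the group mean as a line. H19 and Igf2 are near 0 in 2D and high in 3D, Dio3 shows the reverse, and Meg3 and Rian spread by replicate number within each group.

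**Figure D2:**
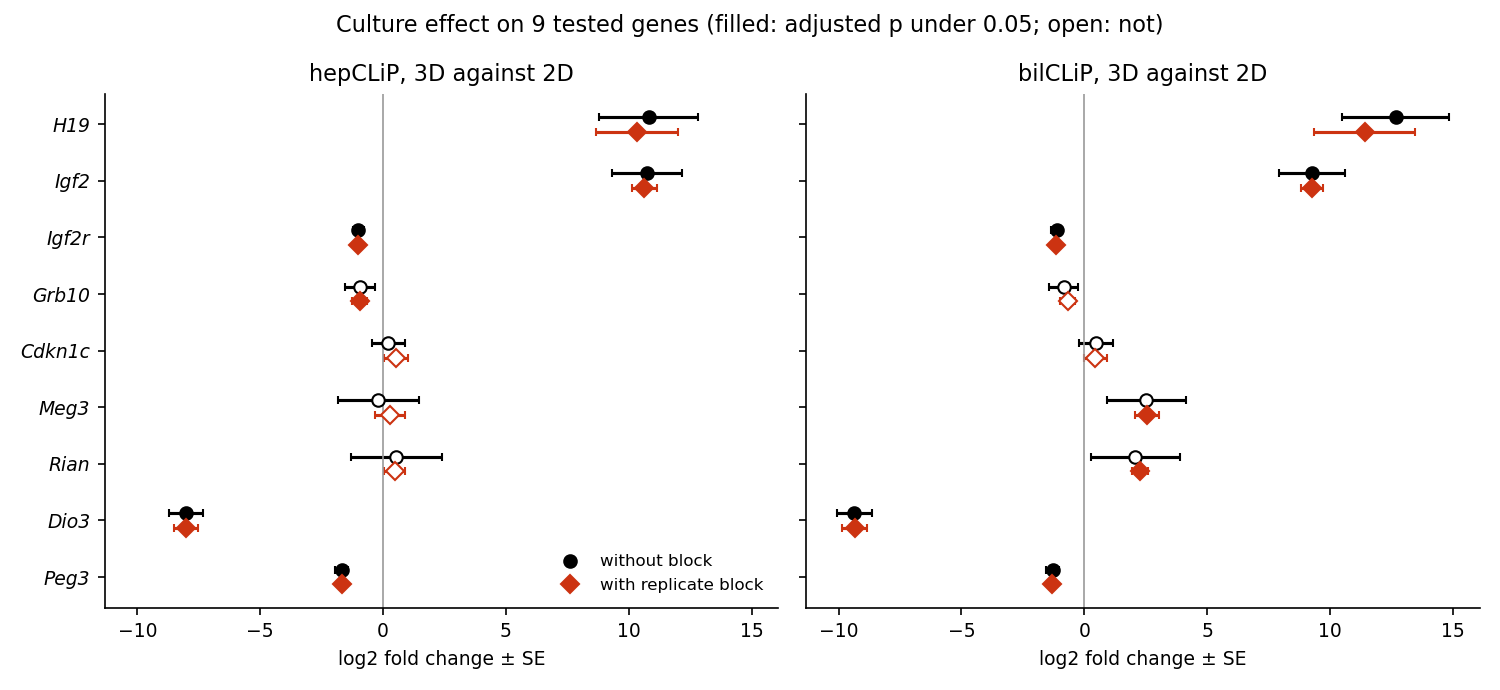
Log2 fold change ± SE of 3D against 2D for the 9 tested genes, from the fit without the replicate block (black circles) and with it (red diamonds). Filled symbols passed an adjusted p of 0.05, and Meg3 and Rian in bilCLiP and Grb10 in hepCLiP are filled only with the block.

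H19, the noncoding RNA, was nearly silent in 2D and among the abundant transcripts of most spheroid libraries. In hepCLiP it measured 0.971, 1.32 and 1.35 CPM in 2D and 1067, 4806 and 673 CPM in 3D (replicates 1, 2 and 3). The 3D values did not overlap the 2D values and spread 7.14-fold among themselves. H19 rose by 10.81 ± 2.01 (SE) on the log2 scale (adjusted p = 0.00232), and by 9.48 without hepCLiP 3D replicate 2. In bilCLiP it measured 0.431, 0.155 and 0.638 CPM in 2D and 11.7, 6685 and 1316 CPM in 3D. Again the groups did not overlap, but replicate 1 in 3D stood 573-fold below replicate 2. H19 rose by 12.68 ± 2.17 in bilCLiP (adjusted p = 0.00177). Without its 3D replicate 1 the value was 13.28, and without its 3D replicate 2 it was 10.67. H19 took 0.551% of all counts in bilCLiP 3D replicate 2, where it ranked 19 among all genes by count. It ranked 30 in hepCLiP 3D replicate 2 and 8632 in bilCLiP 3D replicate 1. That low library is also the one with the lowest summed hepatocyte markers among the 6 spheroid libraries, and their part in the H19 spread was not tested.

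Genes with a pattern most like H19 over the 12 libraries were Sec14l4, Arg1 and Etnk2 (Pearson's r of log2(CPM + 1) of 0.990, 0.990 and 0.989). This likeness is a description across 4 groups that share the culture contrast. Arg1, arginase of the urea cycle, measured 4.48 CPM in bilCLiP 3D replicate 1 against 696 and 189 CPM in replicates 2 and 3. Within groups, taking deviations from the group means, the nearest genes were Hrg, a plasma glycoprotein, Saa4, a serum amyloid, and Dpm1 (r = 0.987, 0.972 and 0.961, n = 12). Hrg measured 31.7, 326 and 150 CPM in the 3 bilCLiP 3D libraries, so it was low in the same library as H19.

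Igf2, the fetal growth factor gene next to H19, rose from almost nothing in every spheroid library. In hepCLiP it measured 0.0925, 0.136 and 0 CPM in 2D and 366, 40.5 and 30.6 CPM in 3D. All 3 spheroid values lay far above the 2D values, and replicate 1 stood 11.96-fold above replicate 3. The rise was 10.74 ± 1.41 (SE) on the log2 scale (adjusted p = 0.000377), and 8.78 without hepCLiP 3D replicate 1 (adjusted p = 0.000196). In bilCLiP Igf2 measured 0.0861, 0 and 0.182 CPM in 2D and 48.1, 31.7 and 90.7 CPM in 3D. These 3D values lay within a 2.86-fold range and did not overlap those in 2D. The rise was 9.28 ± 1.36 (adjusted p = 0.000786). Because the 2D groups held 5 and 6 Igf2 counts in all, these folds move with single 2D libraries. They were 11.38 in hepCLiP without 2D replicate 2, and 8.67 and 10.22 in bilCLiP without 2D replicates 2 and 3.

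The hepCLiP library with the highest Igf2 also had the highest sum of 10 fibroblast and stellate cell markers, 291 CPM, against 7.45 and 6.32 CPM in the other 3D libraries and 1.32 to 9.21 CPM in hepCLiP 2D. In bilCLiP that sum was 3.49 to 4.78 CPM in 2D and 24.6 to 39.7 CPM in 3D. Dcn, the proteoglycan decorin and also on the list of further imprinted genes below, made up 282 of the 291 CPM. The 8 markers other than Dcn and Reln, among them the collagens Col1a1, Col1a2 and Col3a1 and the PDGF receptors, reached at most 1.17 CPM in any library.

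H19 and Igf2 did not keep a fixed proportion. In hepCLiP 3D there were 2.92, 119 and 22.0 H19 counts per Igf2 count in replicates 1, 2 and 3. In bilCLiP 3D the ratios were 0.242, 211 and 14.5. Thus bilCLiP 3D replicate 1 held more Igf2 than H19 counts (731 against 177), and the other 5 spheroid libraries held more H19. Within groups, the deviations of H19 and Igf2 had r = -0.10 (n = 12 libraries, a description). The deviations most like those of Igf2 were those of Pglyrp2, Hopx and Igf2os (r = 0.986, 0.978 and 0.974). Like Igf2, these genes were highest in hepCLiP 3D replicate 1. Pglyrp2 had 20.5 CPM there, against 7.02 and 6.32 CPM in replicates 2 and 3, and Hopx 6.74 against 2.48 and 2.71 CPM. In bilCLiP 3D Pglyrp2 reached at most 0.754 CPM and Hopx 0.464 CPM. How far these r values rest on that 1 library was not tested. Igf2os, the antisense transcript of Igf2, had 0 counts in hepCLiP 2D and 332 in 3D, at least 167-fold higher against 3 counts over the 2D group. Replicate 1 held 267 of those 332 counts, and the fitted log2 rise was 10.25 with it and 8.51 without it. In bilCLiP it had 5 counts in 2D and 313 in 3D, and rose by 6.32 ± 1.22 (adjusted p = 0.00519). Without bilCLiP 2D replicate 2 that rise was 5.73 and without 2D replicate 3 it was 7.02. Igf2os counts were 4.90% to 15.0% of Igf2 counts in the 6 spheroid libraries. Without a known strand setting of the counting, reads of Igf2 and its antisense partner cannot be told apart.

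**Figure D3:**
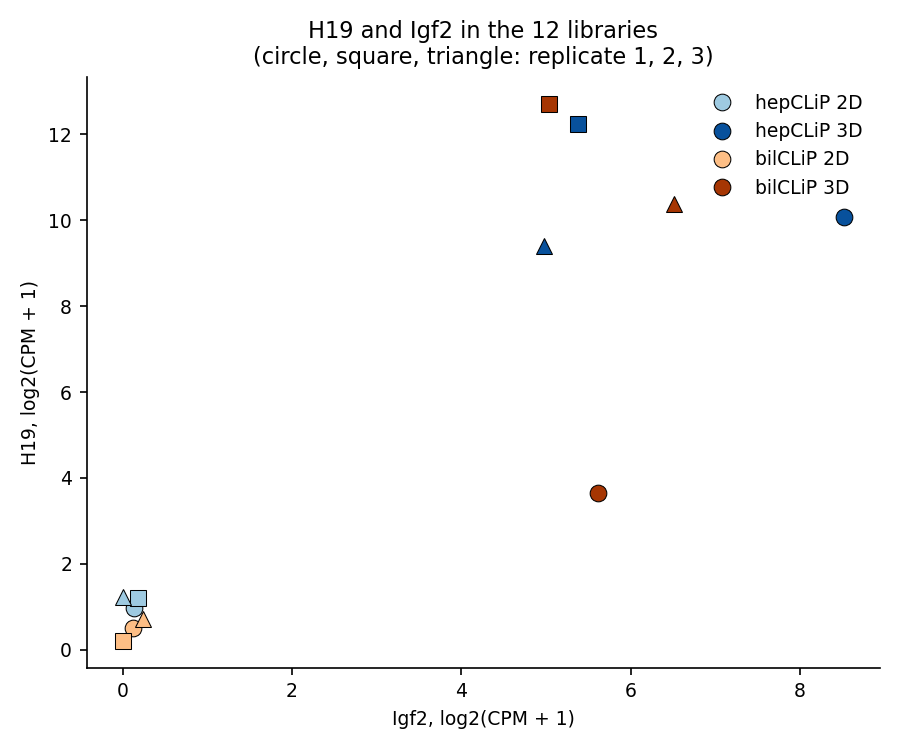
H19 against Igf2 in the 12 libraries, both as log2(CPM + 1), coloured by group, with replicates 1, 2 and 3 as circle, square and triangle. The 6 libraries in 2D sit near the origin, while among the 6 in 3D Igf2 spans 30.6 to 366 CPM and H19 spans 11.7 to 6685 CPM with no common order.

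Igf2r, the receptor that carries IGF2 to lysosomes, fell in both origins. In hepCLiP it measured 493, 537 and 429 CPM in 2D and 293, 243 and 190 CPM in 3D. The bilCLiP values were 487, 524 and 465 CPM in 2D and 305, 189 and 183 CPM in 3D. The 2D and 3D values did not overlap in either origin, and the spread within a group was at most 1.67-fold. Igf2r fell by 1.01 ± 0.22 (SE) on the log2 scale in hepCLiP (adjusted p = 0.00571) and by 1.12 ± 0.22 in bilCLiP (adjusted p = 0.003875). Airn, the noncoding RNA that runs antisense to Igf2r, fell by 1.38 ± 0.32 in hepCLiP (adjusted p = 0.00754). Its change in bilCLiP was -0.71 (adjusted p = 0.11). The strands of this pair could not be separated, so Airn counts may include Igf2r reads. Airn counts were 0.650% to 4.02% of Igf2r counts in the 12 libraries.

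Grb10, an adaptor that binds insulin and IGF receptors, had groups that overlapped. It measured 63.9, 91.7 and 34.2 CPM in hepCLiP 2D and 18.5, 52.6 and 28.3 CPM in 3D. The bilCLiP values were 34.5, 175 and 97.6 CPM in 2D and 33.9, 86.4 and 50.5 CPM in 3D. Replicate 2 was the highest of its group in all 4 groups. The log2 fold change was -0.93 ± 0.60 in hepCLiP (adjusted p = 0.25) and -0.85 ± 0.60 in bilCLiP (adjusted p = 0.31). With the replicate block Grb10 fell by 0.95 ± 0.31 in hepCLiP (adjusted p = 0.0437), while in bilCLiP the value was -0.68 (adjusted p = 0.12).

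Other genes that carry or bind IGF2 signals were read from a list of 16, of which 14 were tested. In hepCLiP 3 rose and 3 fell, and in bilCLiP 5 rose and 4 fell. Over all tested genes, 16.9% rose and 17.9% fell in hepCLiP, against 15.8% and 14.5% in bilCLiP. The 5 rises in bilCLiP became 2 without its 2D replicate 1 or 3D replicate 1, and 3 without its 2D replicate 2 or 3D replicate 3. The median log2 fold change of the list was 0.61 in hepCLiP and 1.05 in bilCLiP, against -0.06 and -0.00 over all genes. Igfbp1, an IGF binding protein secreted by hepatocytes, rose from 4.46 ± 3.38 to 1193 ± 283 CPM in hepCLiP (SD, n = 3; log2 8.06, adjusted p = 0.000361). In bilCLiP it rose from 3.25 ± 2.87 to 772 ± 386 CPM (log2 7.88, adjusted p = 0.000454). Without 2D replicate 3 the hepCLiP rise was 8.86, and without 2D replicate 2 the bilCLiP rise was 8.68. Igfbp3, the main carrier of IGFs in blood, rose by 1.54 in hepCLiP (adjusted p = 0.0440) and 1.84 in bilCLiP (adjusted p = 0.0246). Leaving out 1 library ended the Igfbp3 call for 7 of the 12 libraries in hepCLiP and for 5 in bilCLiP (adjusted p up to 0.124 and 0.0944). Igf1r, the receptor that signals for IGF1 and IGF2, fell by 1.74 in hepCLiP (58.7 ± 3.07 to 17.6 ± 2.76 CPM) and by 1.75 in bilCLiP (89.3 ± 3.29 to 26.6 ± 1.63 CPM). Insr, the insulin receptor gene, went the other way. It rose by 1.44 in hepCLiP (66.9 ± 14.4 to 182 ± 26.0 CPM) and by 1.35 in bilCLiP (48.5 ± 9.65 to 124 ± 29.8 CPM). Igfbp7 (-1.61 and -1.53) and Irs2 (-1.08 and -1.75) were called lower in hepCLiP and bilCLiP. Igf1 itself had 0.85 to 3.33 CPM as group means and was not called.

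Dio3, the deiodinase that inactivates thyroid hormone, went the opposite way to Igf2 and was close to absent in spheroids. In hepCLiP it measured 63.5, 22.5 and 47.9 CPM in 2D and 0.366, 0.142 and 0 CPM in 3D. In bilCLiP it measured 69.5, 79.0 and 62.6 CPM in 2D and 0.198, 0 and 0.116 CPM in 3D. Every 2D library lay above every 3D library. The 3D groups held 7 and 5 counts in all, against 2826 and 5018 in 2D. Dio3 fell by 8.01 ± 0.69 (SE) on the log2 scale in hepCLiP (adjusted p = 5.2e-05) and by 9.35 ± 0.73 in bilCLiP (adjusted p = 2.7e-05). The fitted value was -9.11 without hepCLiP 3D replicate 1, -10.07 without bilCLiP 3D replicate 1 and -8.77 without bilCLiP 3D replicate 2.

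Dio3os, the opposite-strand transcript of Dio3, had the pattern most like that of Dio3 over the 12 libraries (r = 0.987), followed by Kif5b and Zfp697 (r = 0.986 and 0.984). It measured 22.4, 12.6 and 20.2 CPM in hepCLiP 2D and 0.0733, 0.851 and 0.417 CPM in 3D. The bilCLiP values were 21.0, 27.1 and 31.1 CPM in 2D and 0.0659, 0.804 and 0.174 CPM in 3D. Dio3os fell by 5.34 ± 0.73 in hepCLiP and fell by 6.19 ± 0.75 in bilCLiP, in both without overlap (adjusted p = 0.00046 and 0.000273). Reads of this pair could not be assigned by strand either.

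Dio1, the deiodinase that makes active thyroid hormone in the liver, rose where Dio3 fell. It measured at most 0.23 CPM in any 2D library, 7.98, 15.3 and 18.8 CPM in hepCLiP 3D and 3.49, 6.54 and 13.9 CPM in bilCLiP 3D. The log2 rise was 6.90 ± 1.00 in hepCLiP (adjusted p = 0.000626) and 6.43 ± 1.00 in bilCLiP (adjusted p = 0.00106). The bilCLiP value was 8.21 without 2D replicate 3 and 5.76 without 3D replicate 3. Of 16 genes that handle thyroid hormone, 15 were tested, and 8 rose and 1 fell in each origin. Of all tested genes, 16.9% rose and 17.9% fell in hepCLiP, and 15.8% rose and 14.5% fell in bilCLiP. The list's median log2 fold change was 1.37 in hepCLiP and 1.91 in bilCLiP, against -0.06 and -0.00 over all genes. With the replicate block 2 fell in hepCLiP, Me1 and Hr, where that fit called 47.1% of all genes in either direction. Among the rises were the thyroid hormone carriers Ttr (log2 3.49 and 4.17) and Serpina7 (5.59 and 3.48), the receptor Thrb (1.96 and 1.69) and its partner Rxra (3.11 and 3.05). Klf9 also rose in both origins (0.85 and 0.85), and Thrsp rose in hepCLiP (3.63, adjusted p = 0.00169, and 4.45 without 2D replicate 2). The fall was that of Me1, malic enzyme (-1.43 and -1.77). A response to thyroid hormone was not tested. Ttr is also one of the 8 hepatocyte markers. In bilCLiP the Serpina7 call was lost without 2D replicate 2 (3.31, adjusted p = 0.0715) and the value was 4.78 without 2D replicate 3. In hepCLiP Serpina7 was at 6.37 without 2D replicate 2. Ttr was at 4.11 in hepCLiP without 2D replicate 1 and at 4.78 in bilCLiP without 2D replicate 2.

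**Figure D4:**
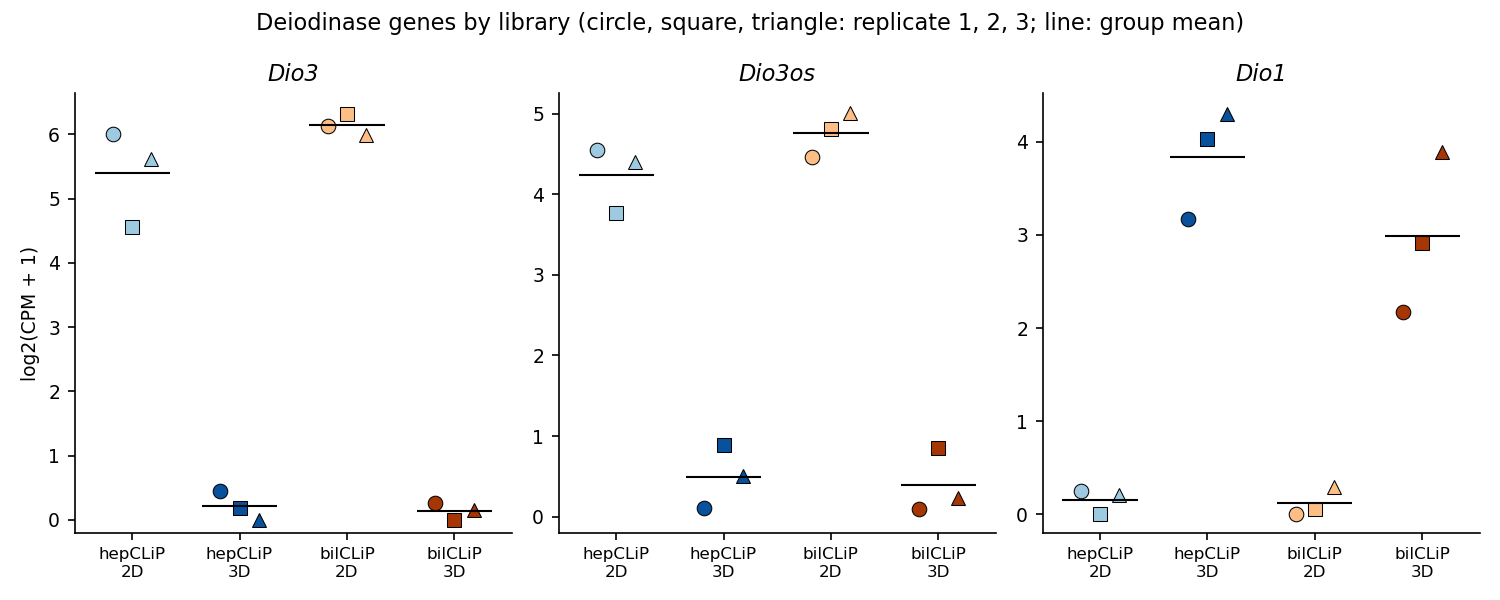
Dio3, its opposite-strand transcript Dio3os and the other hepatic deiodinase Dio1 in the 12 libraries, as log2(CPM + 1), with group means as lines. Dio3 and Dio3os are high in all 6 libraries in 2D and near 0 in 3D, and Dio1 is near 0 in 2D and between 3.49 and 18.8 CPM in 3D.

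Meg3 and Rian, noncoding RNAs of the same domain as Dio3, followed the replicate number more than the culture. Meg3 measured 0.324, 0 and 4.85 CPM in hepCLiP 2D and 0.366, 0.497 and 3.61 CPM in 3D. Rian measured 0.0463, 0.136 and 4.20 CPM in hepCLiP 2D and 0.147, 0.0709 and 6.05 CPM in 3D. So hepCLiP replicate 3 was the high library for both RNAs in both cultures, and the other 4 hepCLiP libraries held 0 to 7 counts of each. Replicates 1 and 3 carry the same reporter genotype, and replicate 1 was low.

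In bilCLiP both RNAs were higher in 3D for each replicate number, with groups that overlapped. Meg3 measured 7.97, 0.233 and 2.78 CPM in 2D and 44.9, 1.32 and 17.2 CPM in 3D. Rian measured 10.1, 0.194 and 2.46 CPM in 2D and 34.3, 0.746 and 19.1 CPM in 3D. Replicate 1 was highest and replicate 2 lowest in each culture. Within a replicate number, Meg3 was 5.64, 5.66 and 6.18 times higher in 3D, and Rian 3.38, 3.84 and 7.76 times. Without the block, neither was called in bilCLiP, with log2 fold changes of 2.53 ± 1.62 for Meg3 (adjusted p = 0.27) and 2.08 ± 1.81 for Rian (adjusted p = 0.42). In the fit blocked on replicate number, Meg3 rose by 2.54 ± 0.48 (adjusted p = 0.00547) and Rian by 2.26 ± 0.33 (adjusted p = 0.00159). In hepCLiP neither passed with the block, at 0.27 for Meg3 (adjusted p = 0.74) and 0.47 for Rian (adjusted p = 0.42). The blocked difference between the origins' culture effects was 2.27 ± 0.80 for Meg3 (adjusted p = 0.55) and 1.79 ± 0.55 for Rian (adjusted p = 0.52), so the rise was not shown to differ from hepCLiP. The blocked fit called 6 of the 9 genes in hepCLiP, where it called 47.1% of all, and 7 of 9 in bilCLiP, where it called 43.1%.

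**Figure D5:**
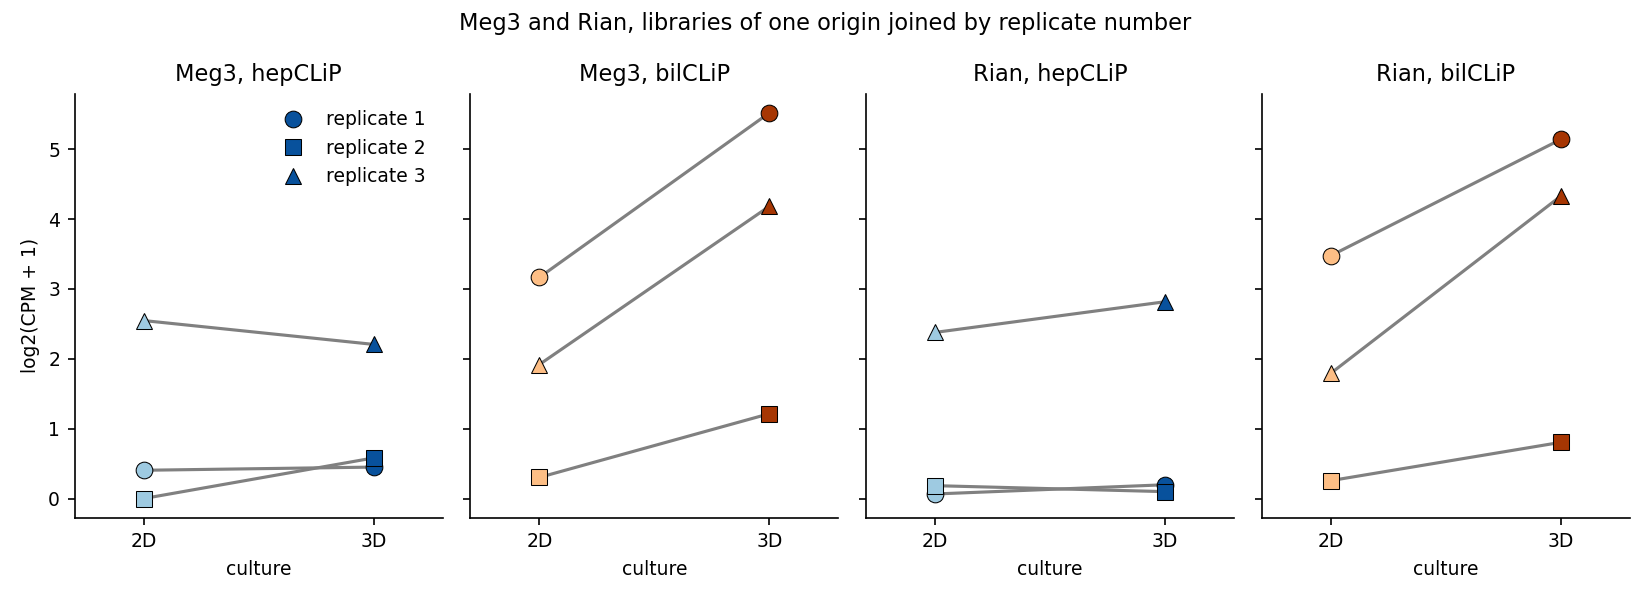
Meg3 and Rian as log2(CPM + 1) in 2D and 3D, with libraries of one origin and replicate number joined by a line. All 3 bilCLiP lines rise for both RNAs, and the order of the replicates is the same in 2D and 3D, while the hepCLiP lines stay nearly level.

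Meg3 and Rian moved as one across libraries, with r = 0.98 for their deviations from the group means (n = 12, a description). In the 8 libraries with more than 3 counts of both, there were 0.565 to 1.67 Rian counts per Meg3 count. The genes whose deviations were most like those of Meg3 were Leprot, Gnl3 and Rps24, a ribosomal protein gene (r = 0.983, 0.968 and 0.964). For Rian they were Leprot, Hnrnpc and Rps24 (r = 0.980, 0.965 and 0.964). Rps24 measured 427, 503 and 637 CPM in hepCLiP 2D and 732, 353 and 538 CPM in bilCLiP 2D, so its highest library was the same as that of Meg3 in both groups. Rps24 has near-identical pseudogene copies that can share its reads, so its level is uncertain. Mirg, a further noncoding RNA of the domain, reached at most 1.19 CPM, in bilCLiP 3D replicate 1, and was below the filter.

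Dlk1, a transmembrane ligand of fetal liver and of progenitor cells, was hardly detected. It had 12, 0 and 23 counts in hepCLiP 2D and 0, 1 and 0 in 3D. In bilCLiP it had 0 counts in all 3 libraries in 2D and 6, 0 and 0 in 3D. The groups overlapped in both origins. Summed over hepCLiP libraries, the 3D level was 0.0431 of the 2D level (exact 95% interval 0.00106 to 0.257, counting error only), and 2 libraries hold all 2D counts. A count of 0 allows up to 3 counts, which is 0.117 to 0.220 CPM in these libraries. A list of 14 genes held Notch ligands, receptors and targets, the paralogue Dlk2 and the protease gene Adam17. Of the 14, 11 were tested, and 1 rose and 5 fell in each origin. Adam17 was among the falls in both (-0.66 in hepCLiP and -0.51 in bilCLiP). Over all genes 16.9% rose and 17.9% fell in hepCLiP, and 15.8% and 14.5% in bilCLiP. In bilCLiP 3 fell without 2D replicate 3, 3D replicate 2 or 3D replicate 3. The list's median log2 fold change was -0.79 in hepCLiP and -0.98 in bilCLiP. Dll1, a Notch ligand, rose by 4.17 and 5.65 on the log2 scale in hepCLiP and bilCLiP. Dlk2 fell by 3.85 and 3.27 (3.17 without hepCLiP 2D replicate 3 and 2.60 without bilCLiP 2D replicate 2), and the Notch target Hes1 fell by 2.01 and 1.56.

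Peg3, a zinc finger protein gene read from the paternal copy, was the most abundant of the 10 genes in 2D per length and fell in 3D. In hepCLiP it measured 2393, 1552 and 2019 CPM in 2D and 605, 504 and 757 CPM in 3D. In bilCLiP it measured 2461, 2989 and 3619 CPM in 2D and 1034, 1590 and 1092 CPM in 3D. The groups did not overlap, and each spanned at most 1.54-fold. Peg3 fell by 1.68 ± 0.27 (SE) on the log2 scale in hepCLiP (adjusted p = 0.000995) and by 1.29 ± 0.26 in bilCLiP (adjusted p = 0.00449). Usp29, which shares the Peg3 start region, fell by 2.24 ± 0.26 in hepCLiP (36.8 ± 12.7 to 7.76 ± 0.35 CPM, SD, n = 3, adjusted p = 0.000208). It fell by 1.87 ± 0.26 in bilCLiP (70.8 ± 12.5 to 19.4 ± 3.20 CPM, adjusted p = 0.000527). Zim1, the maternally read neighbour of Peg3, was not called, at -0.68 (adjusted p = 0.47) and -0.35 (adjusted p = 0.73).

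Cdkn1c, which encodes the cell cycle inhibitor p57, was low everywhere and its groups overlapped. It measured 1.90, 0.546 and 0.200 CPM in hepCLiP 2D and 1.47, 0.851 and 0.764 CPM in 3D. In bilCLiP it measured 0.861, 0.777 and 0.547 CPM in 2D and 1.51, 0.689 and 0.870 CPM in 3D. The log2 fold change was 0.22 ± 0.68 in hepCLiP (adjusted p = 0.83) and 0.48 ± 0.68 in bilCLiP (adjusted p = 0.64), on 43 to 57 counts per group. Of 7 other genes named as CDK inhibitors, none rose, 2 fell in hepCLiP and 1 fell in bilCLiP. Of all tested genes, 16.9% rose and 17.9% fell in hepCLiP, and 15.8% rose and 14.5% fell in bilCLiP. With the replicate block 3 fell in each origin, Cdkn2a, Cdkn2b and Cdkn3. That blocked fit called 47.1% of all genes in hepCLiP and 43.1% in bilCLiP, in either direction. In the fit without the block, leaving out hepCLiP 3D replicate 2 gave 2 falls in bilCLiP. Cdkn3, a phosphatase that acts on cyclin-dependent kinases, was at -2.27 and -2.04 without the block and was called in both origins. Cdkn2a, which encodes p16 and p19ARF, was at -1.49 in hepCLiP, where it was called, and at -1.24 in bilCLiP (adjusted p = 0.0528, and 0.00097 with the block). The Cdkn2a call was lost without hepCLiP 2D replicate 2, 3D replicate 1 or 3D replicate 3 (adjusted p = 0.0801 to 0.0969). The Cdkn3 call in bilCLiP was lost without 4 libraries, 2D replicates 1 and 2 and 3D replicates 1 and 2 (adjusted p = 0.0530 to 0.0756).

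Beyond the 10 genes, 62 further genes were listed as imprinted and 44 were tested for a culture effect. Whether they are imprinted in these cells was not tested. In hepCLiP 7 rose and 6 fell, and in bilCLiP 3 rose and 5 fell, while 16.9% and 15.8% of all genes rose and 17.9% and 14.5% fell. With the replicate block 9 rose and 10 fell in hepCLiP, and 9 rose and 9 fell in bilCLiP. In either direction that blocked fit called 47.1% of all genes in hepCLiP and 43.1% in bilCLiP. The 5 falls in bilCLiP became 2 without 2D replicate 2 and 3 without 3D replicate 2 or 3D replicate 3, and the 3 rises became 5 without 2D replicate 1. The list's median log2 fold change was -0.08 in both origins, against -0.06 and -0.00 over all genes. Slc38a4, an amino acid transporter of placenta and liver, rose by 4.49 in hepCLiP and by 8.31 in bilCLiP, where it was 7.69 without 2D replicate 2 and 9.91 without 2D replicate 3. Slc22a18, a transporter gene of the Cdkn1c domain, rose by 3.43 in bilCLiP and by 1.86 in hepCLiP. Ano1, a chloride channel, fell by 4.31 and 3.64. Dcn rose by 6.12 in hepCLiP (adjusted p = 0.0276), with 282 CPM in 3D replicate 1 against 4.68 and 2.64 CPM in the others. Without that library the value was 1.47 (adjusted p = 0.47), and the call was also lost without each 2D replicate (adjusted p = 0.0652 to 0.0791). Mest, a paternally read fetal gene, fell in bilCLiP by 2.04 from 1.69 ± 0.54 CPM (SD, n = 3), and that call was lost without 2D replicate 2 or 3D replicate 2 (adjusted p = 0.0505 and 0.0506).

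Genes listed as co-regulators or markers of fetal growth mostly fell where called, and the 1 rise in each origin was that of Afp. Of 14 listed, 12 were tested, and 1 rose and 4 fell in hepCLiP, while 1 rose and 3 fell in bilCLiP. Over all genes 16.9% rose and 17.9% fell in hepCLiP, and 15.8% and 14.5% in bilCLiP. With the replicate block 2 rose, Afp and Plag1, and 6 fell in hepCLiP, where that fit called 47.1% of all genes in either direction. Without the block, 2 also rose there when bilCLiP 3D replicate 3 was left out. The list's median log2 fold change was -0.89 in hepCLiP and -0.31 in bilCLiP. Afp, the fetal serum protein, rose by 3.68 in hepCLiP (12.95 ± 16.3 to 166 ± 92.5 CPM, SD, n = 3) and by 3.52 in bilCLiP (34.6 ± 23.2 to 398 ± 327 CPM). The Afp call was lost without 1 library for 4 libraries in hepCLiP (adjusted p up to 0.0771) and for 5 in bilCLiP (adjusted p up to 0.105), and the hepCLiP value was 5.53 without 2D replicate 3, while the bilCLiP value was 2.65 without 3D replicate 3. Igf2bp1, a protein that binds Igf2 and H19 RNA, fell by 2.49 and 3.00, and Hmga2, a fetal chromatin protein, fell by 1.82 and 2.93. Zhx2 and Zbtb20, repressors of Afp, and in the case of Zhx2 of H19, in adult liver, were not called. Zhx2 was at -0.04 and 0.13 and Zbtb20 at 0.27 and -0.26 on the log2 scale.

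Genes that keep imprints, listed together with the Tet genes, which act to remove DNA methylation, showed no rise among 17 tested of 20 listed. Of all tested genes, 16.9% rose in hepCLiP and 15.8% in bilCLiP. There were 7 falls in hepCLiP and 6 in bilCLiP, where 17.9% and 14.5% of all tested genes fell. The 6 became 3 without bilCLiP 2D replicate 1 or 3D replicate 3, and 1 gene rose in hepCLiP without 2D replicate 3. The list's median log2 fold change was -0.47 in both origins, against -0.06 and -0.00 over all genes. Uhrf1, which brings the maintenance methylase to replicated DNA, fell by 2.75 and 2.37. Dnmt1, that methylase, fell by 1.75 in hepCLiP (167 ± 5.34 to 49.8 ± 18.2 CPM, SD, n = 3) and by 1.31 in bilCLiP (119 ± 51.4 to 47.8 ± 20.3 CPM). The bilCLiP call for Dnmt1 was lost without 2D replicate 1 or 3D replicates 2 or 3 (adjusted p = 0.0702 to 0.0874). Trim28, the corepressor at imprinted control regions, fell by 0.76 and 0.49. Zfp57, the zinc finger protein that brings TRIM28 there, was at -0.98 and -0.74 and was not called (adjusted p = 0.089 and 0.20). Ctcf, whose product insulates Igf2 from the enhancers on the other copy, was at -0.27 and -0.18 (adjusted p = 0.076 and 0.23). Tet1 (-2.47 and -1.90) and Tet2 (-0.67 and -0.68) were also among the called falls in hepCLiP and bilCLiP. Each of these calls was lost without some single libraries (adjusted p up to 0.174). No DNA methylation was measured.

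Origin left no called difference among the 9 tested genes. In 2D, 0 of 9 were called between bilCLiP and hepCLiP by edgeR, against 0.135% of all genes, and 1 had an unadjusted p under 0.05. DESeq2 also called 0 of the 9, against 3.78% of all genes. In 3D, 0 of 9 were called, against 0.101% of all, and again 1 had an unadjusted p under 0.05. That gene was Peg3 in both cultures, with non-overlapping groups and log2 differences of 0.60 ± 0.26 in 2D (adjusted p = 0.32) and 0.99 ± 0.26 in 3D (adjusted p = 0.16). DESeq2 called Peg3 in 3D (0.96, adjusted p = 0.0108), where it called 4.41% of all genes. H19 in 2D also had non-overlapping groups, lower in bilCLiP, on 77 and 28 counts (log2 difference -1.58, adjusted p = 0.71).

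Tests of the difference between the culture effects called 0 of 9 genes, and 0.0% of all, by edgeR, with 0 of the 9 under an unadjusted p of 0.05. DESeq2 called 0 of the 9 as well, against 0.108% of all. For H19 the difference, bilCLiP minus hepCLiP, was 1.87 ± 2.14 (SE) on the log2 scale, for Igf2 -1.47 ± 2.69 and for Dio3 -1.35 ± 1.23. For Peg3 it was 0.39 ± 0.37 and for Igf2r -0.12 ± 0.31. Meg3 had the largest, 2.72 ± 2.29. These errors are wide for all but Peg3 and Igf2r, so a difference of several fold was not detectable for the other genes.

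Per kilobase of exon, the order of the genes changed with culture. On this scale (CPM per kb of the exon union, GENCODE M21 lengths), Peg3 had a mean of 149 in hepCLiP 2D and 227 in bilCLiP 2D. Igf2r followed with 52.2 and 52.9, Dio3 with 22.0 and 34.6 and Grb10 with 6.96 and 11.3, and the remaining 6 genes stayed under 0.5. In 3D H19 led with 887 in hepCLiP and 1086 in bilCLiP, ahead of Peg3 with 46.7 and 93.0. The order did not hold in bilCLiP 3D replicate 1, where H19 had 4.74 and Peg3 77.6 CPM per kb, and the bilCLiP mean of H19 rests mostly on replicate 2 with 2717. Igf2r and Igf2 were neighbours in hepCLiP 3D (26.0 and 25.4 CPM per kb), where Igf2 spread 11.96-fold between libraries. In bilCLiP 3D Igf2r had 24.3 and Igf2 9.94 CPM per kb. Meg3 and Rian, with 1.17 and 0.989 CPM per kb in bilCLiP 3D, were alike there within their spread.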

How the data were processed

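RNA-seq was analysed from 12 libraries in 4 groups of 3, grouped by title. Raw counts per gene and a second table, of normalized signal, were deposited by the authors. Per the submitters' processing notes the build was GRCm39 and the tools were featureCounts 2.0.1, STAR 2.7.10b and an unnumbered DESeq2. Annotation and strand setting: not given in the sources used here. In R 4.3.3, edgeR 4.0.16 (filterByExpr, TMM, glmQLFit robust, glmQLFTest) fitted 4 group means over all 12 libraries and 5 contrasts, with Benjamini-Hochberg adjustment over 14798 genes. The steps were tested on simulated data. CPM are counts per 1000000 of the TMM library size, computed from the deposited counts. A standard error is the log2 fold change over the root of F.

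Alternatives were RLE factors, no filter, DESeq2 1.42.0, limma 3.58.1 on log2(value + 1) of the authors' normalized values, fewer samples, a replicate block and leaving out each library. Replicate numbers paired 2D with 3D within an origin: deviations from the group means had r = 0.429 to 0.523 for all 6 same-numbered pairs, against -0.370 to -0.033 for other numbers. Deviations cancel within a group by construction, so positive r for same numbers forces negative r on average for other numbers. The negative values are therefore no separate evidence of pairing. Across origins, same-numbered libraries had r = 0.054 to 0.126. No 2 libraries of a group were identical (lowest r 0.944), and their counts differed by more than sampling noise.

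Named genes are the 10 genes, up to 4 called members of each list with the largest change, and the 3 genes most like H19, Igf2, Dio3, Meg3 or Rian. Others were chosen after their values were seen. The genes and lists were chosen with earlier results of these data known. Depth was 16142365 to 21253382 counts, so 3 counts are 0.117 to 0.220 CPM. Intervals and floors cover counting error only, since PCR copies are not independent molecules. Lengths are from GENCODE M21 and sequences from RefSeq, both on GRCm38, and no GRCm39 coordinates were used.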

Additional observations from a re-analysis of the deposited data

How the results depend on the processing

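The counts of called genes stayed within 1.5 times of the reported ones under 32 of 34 alternatives that left out no single library. With only the RosaYFP libraries, 2 of the 9 genes were called in hepCLiP in place of 5, a fit with 1 hepCLiP library per culture whose spread is taken from the bilCLiP groups, and there H19 (11.82, adjusted p = 0.15), Peg3 (-1.62, adjusted p = 0.093) and Igf2r (-1.14, adjusted p = 0.14) missed the threshold. With DESeq2, 1 gene, Peg3, was called between origins in 3D in place of 0 (0.96). Leaving out each library in turn gave 5 called genes in hepCLiP, 5 in bilCLiP and 0 in each of the other 3 comparisons.

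Direction turned only for genes that were not called. Meg3 in hepCLiP, at -0.19, was 0.98 with limma, 6.31 with the RosaYFP libraries only and 0.27 with the replicate block, and -1.96 to 3.16 without single libraries. Rian in hepCLiP, at 0.53, was -0.89 with the RosaYFP libraries only and -3.66 to 4.42 without single libraries. Cdkn1c in hepCLiP was -0.25 to 1.44 without single libraries. Between origins in 2D, Meg3 was -0.20 to 4.44 and Rian -0.14 to 5.43 without single libraries, both negative without bilCLiP 2D replicate 1. The cause was not tested.

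With the replicate block, 6 genes were called in hepCLiP and 7 in bilCLiP, which added Grb10 in hepCLiP (-0.95), Meg3 (2.54) and Rian (2.26) in bilCLiP. The block changed no other call. With it, Igf2 in 2D and Dio3 in 3D were below the filter between origins and could not be fitted. Depth limits Dlk1, Cdkn1c, Meg3 and Rian most, and Igf2, H19 and Dio3 in the culture where each is nearly silent, so the size of their folds is less certain than the direction. Restricting the test of the difference between culture effects to the groups compared gives the same fit as reported.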
